A study of Mus musculus with 16 samples.

Results

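The regions described here are stretches of the mouse genome that carried a peak of histone H3 lysine 18 lactylation (H3K18la) in both libraries made from muscle macrophages 4 days post injury (dpi) and in neither library made at 2 dpi. Peaks of the 4 H3K18la lists that shared at least 1 bp were merged, which gave 29837 regions on chromosomes 1 to 19, X and Y. Of these, 457 (1.53%) met the rule, and they are called gained regions. They were chosen by their H3K18la peak calls, so the gain of lactylation itself is a description and was not tested. The lists of the other marks played no part in the choice. The paper states, however, that all marks were profiled in the same samples. A difference between samples may thus be shared by the marks, and their lists are not fully independent of the choice.

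The cells were CD45+CD11b+F4/80+CD64+ macrophages, sorted from the calf muscle of young adult C57BL6J wild type male mice after hind limb ischemia, in which the femoral artery is ligated and cut out. CUT&Tag, which uses an antibody to bring a transposase to a chromatin mark, was run for H3K18la, for acetylation of H3 lysine 27 (H3K27ac), and for trimethylation of H3 lysine 4 (H3K4me3) and lysine 27 (H3K27me3). Each mark had 2 libraries at 2 dpi and 2 at 4 dpi, 16 in all, every one from an injured limb, with sodium butyrate, an inhibitor of histone deacetylases, in the buffers. No uninjured muscle, no antibody control and no knockout was among the libraries, and the sort takes all cells with the 4 surface proteins, whatever their state. The study's methods call the 2 libraries of a group biological replicates, while the labels give only a replicate number and do not tie a library to its mice.

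Lactylation is the addition of a lactyl group, derived from lactate, to lysines. On H3K18 it is found at active promoters and enhancers. H3K27ac likewise marks active promoters and enhancers and is placed by the acetyltransferases p300 and CBP, H3K4me3 marks active promoters, and H3K27me3 is the mark of Polycomb repression. Between the 2 time points macrophages in injured muscle pass from an inflammatory towards a restorative state. The question put to the gained regions was which marks they carried at 2 dpi, and in particular whether acetylation was already in place before lactylation was called.

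Positions are in the GRCm39 build, counted from 1. Genes are not named, since no annotation of that build was used here, and for the same reason the macrophage label was not set against marker genes. The files hold peaks and their signal, not reads, so depth is unknown. The strength of a peak is therefore given as its percentile within its own list, by total signal, where 100 is the strongest peak. The H3K18la lists held between 15190 and 27578 peaks, and the longest was that of 2 dpi replicate 1. The 4 dpi replicate 1 list of H3K27ac stood apart: its peaks covered 205 Mb, against 37.8 to 65.3 Mb in the other 3 H3K27ac lists, and its label carries another prefix (S100) than those of the other 3 (S143). Results that rest on it are given with and without it.

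The gained regions were short and of low to middling strength. Their median width was 1450 bp, with a range from 634 to 5567 bp, close to the median of 1474 bp over all H3K18la regions. At 4 dpi their median percentile was 29.0 in replicate 1, with a range from 0.126 to 83.0, and 27.3 in replicate 2, with a range from 0.156 to 80.7. In both lists they thus sat mostly below the middle of the list, and 28 of the 457 lay above the 50th percentile in both. By contrast the 9325 regions called in all 4 lists had medians of 66.6 and 71.2.

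The number of gained regions depended on which lists were set against each other. They made up 3.96% of the 11551 regions called in both 4 dpi lists. A further 1769 regions had a peak in both 4 dpi lists and in 1 of the 2 dpi lists, and in 92.9% of them that peak came from the long list of 2 dpi replicate 1. Without that list the rule gave 2139 gained regions, and without 2 dpi replicate 2 it gave 586. The reverse pattern, a peak in both 2 dpi lists and in neither 4 dpi list, held in 1304 regions, called lost regions below. With the H3K18la lists cut to equal length there were 929 gained and 937 lost regions. A further 2229 regions had no 2 dpi peak but a peak in only 1 of the 4 dpi lists.

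The weakest members show how close the rule runs to the limit of peak calling. A region at 126187818 to 126188850 on chromosome 8 stood at percentiles 0.126 and 0.273 in the 4 dpi lists. One at 24079305 to 24080343 on chromosome 5 stood at 47.4 in replicate 1 but at 0.156 in replicate 2, and one at 10925552 to 10926672 on chromosome 4 at 0.177 and 25.1. Just outside the rule, a region at 26844811 to 26846490 on chromosome 14 was left out by a 2 dpi peak at percentile 0.216, and one at 72843079 to 72844300 on chromosome 15 by a peak at 0.281. Another lay at 94909255 to 94910609 on chromosome 8, with a 2 dpi peak at percentile 0.527.

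H3K27ac was called at far more of the gained regions at 4 dpi than at 2 dpi. A H3K27ac peak overlapped 48.6% of the 457 regions in 2 dpi replicate 1 and 33.3% in 2 dpi replicate 2. At 4 dpi the shares were 87.1% in replicate 1 and 77.9% in replicate 2. Both 4 dpi libraries thus lay above both 2 dpi libraries, and the mean rose from 40.9% ± 10.8 to 82.5% ± 6.50 (SD, n = 2 libraries each), by 41.6 percentage points. The 2-sided exact permutation test gave p = 0.33, which is the smallest p that 2 against 2 libraries allow. Since the cells were profiled in bulk, fewer cells with the mark and less of the mark per cell cannot be told apart.

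**Figure D1:**
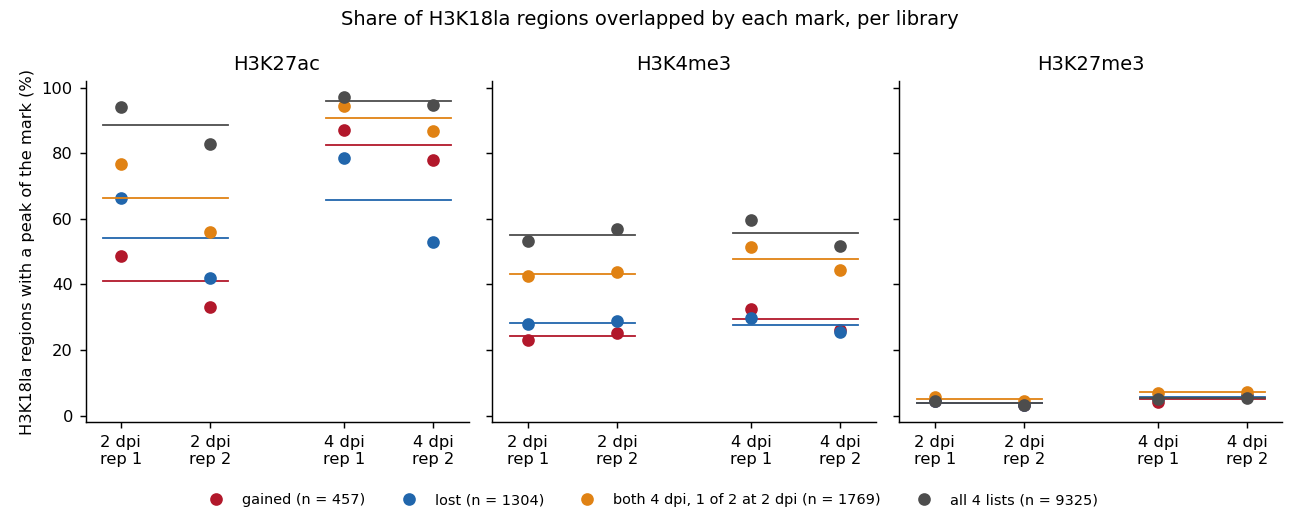
Percent of H3K18la regions overlapped by a peak of H3K27ac, H3K4me3 or H3K27me3 (y axis) in each library (x axis, 2 replicates at 2 dpi and 2 at 4 dpi), with dots for libraries and lines for the mean of a time point. The gained regions (red) go from 48.6% and 33.3% with H3K27ac at 2 dpi, the lowest of the 4 region sets, to 87.1% and 77.9% at 4 dpi, while H3K4me3 stays between 23.2% and 32.6% and H3K27me3 between 3.28% and 6.13%.

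The 29380 other H3K18la regions also had more H3K27ac at 4 dpi, but the step was smaller. Their shares were 68.5% and 53.0% at 2 dpi and 84.8% and 69.1% at 4 dpi, a mean rise of 16.2 percentage points. At 2 dpi the gained regions lay below these others by 19.8 percentage points on average, and at 4 dpi they lay above them by 5.51. Most of these others lack a peak in 1 or both 4 dpi H3K18la lists. Against regions that also had both 4 dpi peaks, the gained regions stayed lower at 4 dpi. The mean difference was -8.09 points from the regions with 1 list at 2 dpi, whose own share rose by 24.2 points, and -13.5 points from the regions in all 4 lists. The change of 25.3 points in the difference from all others was seen in both 4 dpi against both 2 dpi libraries, again at the smallest possible p of the exact permutation test, 0.33. Lost regions went from 66.4% and 41.9% to 78.6% and 53.1%, a rise of 11.7 points in which the libraries of the 2 times overlapped (exact permutation p = 0.667).

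Without the broad 4 dpi replicate 1 list the rise at gained regions was 37.0 points, against 8.39 points at the other regions. The 2 dpi replicate 1 and 4 dpi replicate 2 lists, which share a label prefix, covered 65.3 and 64.7 Mb with 29872 and 31487 peaks. They were set side by side after their values were seen, as 1 library against 1 of unknown depth and with no test. Between these libraries the share of other regions with H3K27ac barely moved, from 68.5% to 69.1%, while that of gained regions went from 48.6% to 77.9%. Counted in bases, peaks covered 40.9% of the gained sequence in that 2 dpi library and 65.2% in that 4 dpi library. The lowest rise under any alternative, 27.7 points, came when 2 dpi replicate 1 of H3K18la was left out.

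H3K27ac was narrowly centred on the lactylated stretch in 3 of the 4 libraries. At the centre of the gained regions 46.6% and 27.6% were covered by a H3K27ac peak at 2 dpi, and 86.7% and 73.7% at 4 dpi. At 5 kb downstream the shares were 10.1%, 6.13%, 38.5% and 10.9%, in the same order. Only 4 dpi replicate 1 stayed high there, since its peaks on gained regions had a median width of 6947 bp, against 1133 to 1668.5 bp in the other 3 libraries. A 2 dpi H3K18la peak lay elsewhere in the same H3K27ac peak in 9.91% and 8.55% of cases at 2 dpi and in 8.99% in 4 dpi replicate 2. In the broad 4 dpi replicate 1 the share was 37.2%. The rule bars a 2 dpi H3K18la peak from the gained region itself, so low shares are largely set by it where H3K27ac peaks are narrow. This share was not computed for other H3K18la regions.

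**Figure D2:**
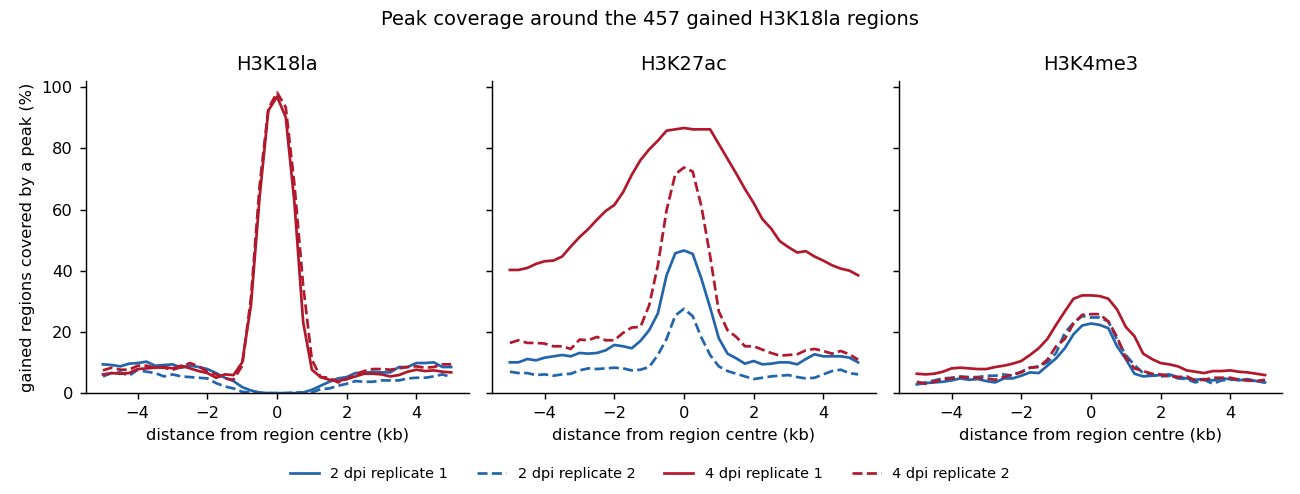
Percent of the 457 gained regions covered by a peak (y axis) against the distance from the region's centre in kb (x axis), for H3K18la, H3K27ac and H3K4me3, with 1 line per library. H3K18la shows the rule itself, with no coverage at the centre at 2 dpi. H3K27ac at the centre goes from 46.6% and 27.6% at 2 dpi to 86.7% and 73.7% at 4 dpi, and H3K4me3 from 22.8% and 24.7% to 31.9% and 25.8%.

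Whether acetylation was there before lactylation had more than one answer, since the gained regions fell into several groups. In 131 of them (28.7%) both 2 dpi libraries already had a H3K27ac peak. Over all 29837 H3K18la regions that share was 49.6%. A further 112 (24.5%) had a peak in 1 of the 2 dpi libraries, so that 243 (53.2%) had some call of acetylation at 2 dpi, against 71.2% of all regions. In 118 gained regions (25.8%) neither 2 dpi library but both 4 dpi libraries had a H3K27ac peak, that is, acetylation and lactylation were both first called at 4 dpi. Over all H3K18la regions this pattern was found in 6.66%. Another 68 (14.9%) had no 2 dpi peak and a peak in 1 of the 4 dpi libraries, and 28 (6.13%) had no H3K27ac peak in any library, against 9.81% of all regions.

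**Figure D3:**
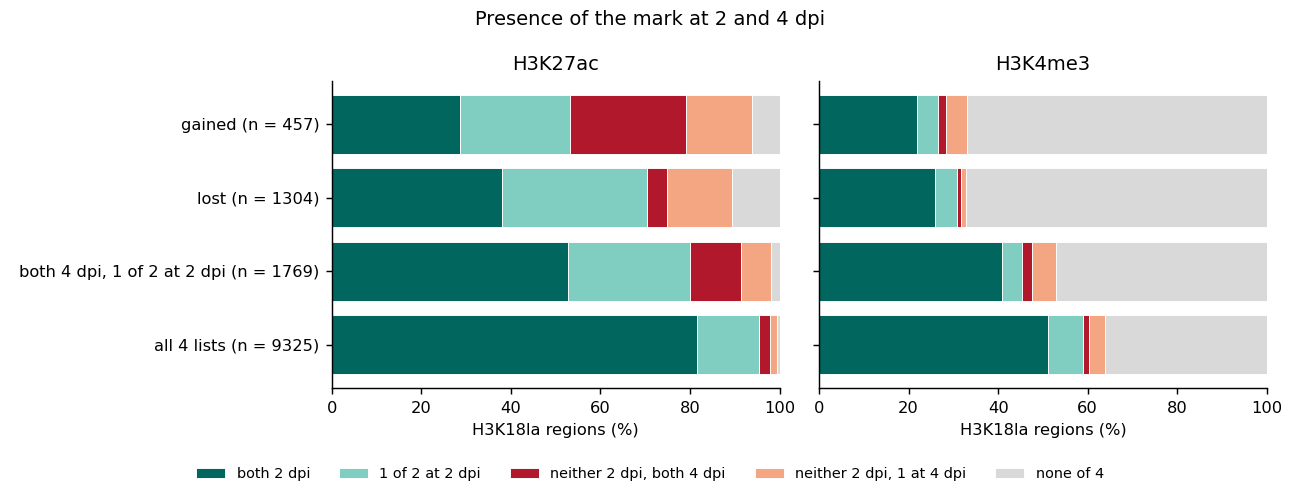
Share of H3K18la regions (x axis, percent) by whether H3K27ac (left) or H3K4me3 (right) was called at 2 dpi, for gained, lost, and other region sets (rows). The red block, a mark called in neither 2 dpi but both 4 dpi libraries, takes 25.8% of gained regions for H3K27ac, against 4.60% of lost regions and 2.45% of regions in all 4 H3K18la lists, and 1.97% of gained regions for H3K4me3.

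None of the 131 regions acetylated in both libraries at 2 dpi lost the mark in both libraries at 4 dpi, and such loss was rare over all H3K18la regions too, at 127 of 14811 (0.857%). The H3K27ac peaks on these 131 had median percentiles of 64.7 and 51.8 in the 2 dpi libraries and 81.6 and 73.4 in the 4 dpi libraries. Percentiles are within lists of different lengths, and a higher median at 4 dpi was not particular to the gained regions. Among regions acetylated in both 2 dpi libraries, those with 1 H3K18la list at 2 dpi had medians of 73.4 and 64.7, then 82.9 and 77.3, and those in all 4 H3K18la lists had 82.9 and 74.7, then 91.2 and 85.5. Regions acetylated only at 4 dpi had H3K27ac peaks with medians of 69.9 in replicate 1 and 41.0 in replicate 2. In 4 dpi replicate 2, the library of ordinary breadth, 5.08% of them stood above the 75th percentile, against 45.3% of the peaks on regions acetylated in both 2 dpi libraries.

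Because the gained regions were weak in H3K18la, their acetylation was also read at like strength. They were set beside regions called in both 4 dpi lists and 1 of the 2 dpi lists, and beside regions called in all 4, in groups by the lower of the 2 percentiles at 4 dpi. From the 25th to the 50th percentile, both 2 dpi libraries had H3K27ac at 29.5% of the 122 gained regions, 54.7% of the 633 regions with 1 list at 2 dpi and 73.4% of the 2136 regions in all 4. Acetylation called only at 4 dpi, in both libraries, was found at 27.05%, 11.53% and 3.28% of them. In the weakest group, up to the 10th percentile, it was found at 23.3% of 150 gained regions, against 13.2% and 4.88%. The order of the 3 sets was the same in every strength group.

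Taken from the other side, H3K18la was also read where acetylation was new. Of all 1986 H3K18la regions with H3K27ac in neither 2 dpi and both 4 dpi libraries, 118 (5.94%) were gained regions, while 77.2% had a H3K18la peak in at least 1 of the 2 dpi lists and 20.7% in both. Among all H3K18la regions the last 2 shares were 91.0% and 43.5%, both higher, and the difference was not tested. Every region counted here has a H3K18la peak in some library by construction. Dependence on the lists is the limit of all these counts, because a call at 2 dpi turns on the length of each list. The share acetylated in both 2 dpi libraries was 48.6% when judged by 2 dpi replicate 1 alone and 33.3% by replicate 2 alone. Acetylation only at 4 dpi ranged from 14.3% to 41.8% of gained regions when 1 H3K27ac or H3K18la library was left out, above the share of the other regions under each of these settings.

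Most of the gained regions carried no H3K4me3. In 306 of them (67.0%) none of the 4 H3K4me3 libraries had a peak, against 54.5% of all H3K18la regions. Lost regions had a like share, 67.1%. The shares with a peak were 23.2% and 25.2% at 2 dpi and 32.6% and 26.0% at 4 dpi. The rise of 5.14 points in the mean was of the order of the spread between the 4 dpi libraries (SD 4.64, n = 2; exact permutation p = 0.33, the smallest possible), and without 4 dpi replicate 1 it was 1.86 points. In 100 regions (21.9%) both 2 dpi libraries had the mark, against 35.7% of all regions, and 99 of these had it in all 4 libraries. Only 9 gained regions (1.97%) had H3K4me3 in neither 2 dpi and both 4 dpi libraries, near the 1.43% of all regions.

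H3K4me3 split the gained regions by the history of their acetylation, but its presence at early acetylated regions was not particular to them. Among regions with H3K27ac in both 2 dpi libraries, H3K4me3 was in both at 77 of 131 gained and 277 of 496 lost regions. It was in both at 637 of 934 regions with 1 H3K18la list at 2 dpi and 4589 of 7607 in all 4 lists. The fuller split that follows was made for gained regions only. Of the 131 with H3K27ac in both 2 dpi libraries, 86 (65.6%) had H3K4me3 in at least 1 library at 2 dpi. Of the 112 with H3K27ac in 1 of the 2 dpi libraries 26 (23.2%) had it, and of the 118 acetylated only at 4 dpi 7 (5.93%) had it. One of the 68 with H3K27ac in a single 4 dpi library and 1 of the 28 without H3K27ac had it. Regions called in all 4 H3K4me3 libraries serve as a stand-in for active promoters, and the median distance to the nearest of them was 0 kb for the 131, 23.3 kb for the 112 and 31.6 kb for the 118. Median widths of the 3 groups were close, at 1488, 1450.5 and 1464 bp. Their median H3K18la percentiles ran in opposite orders in the 4 dpi libraries, 32.8, 29.2 and 28.5 in replicate 1 and 22.6, 27.9 and 29.9 in replicate 2.

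The gained regions overlapped the promoter mark less often than all H3K18la regions did, and so did the lost regions. A H3K4me3 region called in all 4 libraries overlapped 106 gained regions (23.2%), against 35.1% of all H3K18la regions and 26.1% of lost regions. A further 11 lay within 1 kb of such a region and 61 at 1 to 10 kb. At 10 to 100 kb lay 226 (49.5%), against 36.7% of all and 39.1% of lost regions. Over 100 kb away lay 11.6%, against 9.39% and 11.6%. The rule bars overlap with a 2 dpi H3K18la peak, and the median distance to the nearest one was 7.196 kb. At the lost regions the median distance to the nearest 4 dpi peak was much the same, 7.27 kb. Of the gained regions 61 (13.3%) lay within 1 kb of a 2 dpi peak and 52 (11.4%) more than 50 kb away, against 15.9% and 15.6% of lost regions from a 4 dpi peak. Clusters were rare, with 11 regions within 10 kb of another gained region. By chromosome they made up between 0.43% of the H3K18la regions of X (2 regions) and 2.305% of those of chromosome 15 (28 regions), with none among the 23 regions of Y.

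Read jointly, with a mark counted only when both libraries of a time had it, the most frequent change region by region was from neither mark to H3K27ac alone. It was seen at 173 gained regions (37.9%), while 117 (25.6%) had neither mark at both times and 75 (16.4%) had both marks at both times. Since 1 library with a peak is not counted, these 173 include regions with some H3K27ac call at 2 dpi. At 2 dpi 303 gained regions (66.3%) had neither H3K27ac nor H3K4me3, 54 (11.8%) had H3K27ac alone, 77 (16.8%) had both and 23 (5.03%) had H3K4me3 alone. At 4 dpi 122 (26.7%) had neither, 216 (47.3%) H3K27ac alone, 112 (24.5%) both and 7 (1.53%) H3K4me3 alone. Acetylation alone thus became the largest group. The regions with 1 H3K18la list at 2 dpi went from 16.8% to 42.2% with H3K27ac alone, and 28.1% of them changed from neither mark to H3K27ac alone. At the lost regions H3K27ac alone went from 16.8% to 26.2%.

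The strength of H3K27ac was compared where a region of that mark was called in all 4 of its libraries, by limma on the rank of total signal. The shift is the difference, 4 minus 2 dpi, in the normal score of the rank, so that 1 unit is 1 SD of these scores within a library. Of 13494 such H3K27ac regions 24 rose (0.178%) and 1 fell (0.00741%) at an adjusted p under 0.05. Among the 191 that overlapped a gained H3K18la region 4 rose (2.09%) and none fell. Of the 191, 60 (31.4%) had an unadjusted limma p under 0.05, 55 of them upward, against 14.0% of all H3K27ac regions. The share was 20.1% on regions with 1 H3K18la list at 2 dpi and 18.5% on regions in all 4 lists. The median shift was 0.29 on gained regions, with 138 of 191 (72.3%) above 0, against a median of -0.07 over all H3K27ac regions and -0.01 on lost H3K18la regions. On regions with 1 H3K18la list at 2 dpi it was 0.12, with 58.4% above 0, and 10 of 1083 rose (0.92%). On regions in all 4 lists it was 0.03, with 53.1% above 0, and 0.34% rose. The filter takes H3K27ac regions already called at 2 dpi, and these can be wider than the gained region they overlap.

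The number that passed was unstable. Ranked by maximum signal none of the 191 passed in limma, nor did any other H3K27ac region, while 33 of the 191 had an unadjusted p under 0.05 and the median shift on gained regions was 0.28. The number that passed also moved when 1 H3K27ac library was left out. Without 2 dpi replicates 1 and 2 in turn, the median shift on gained regions was 0.33 and 0.37, against -0.09 and -0.07 over all. Without 4 dpi replicates 1 and 2 in turn it was 0.24 and 0.34, against -0.01 and -0.07. The lone library of a time is then assumed to vary like the others.

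**Figure D4:**
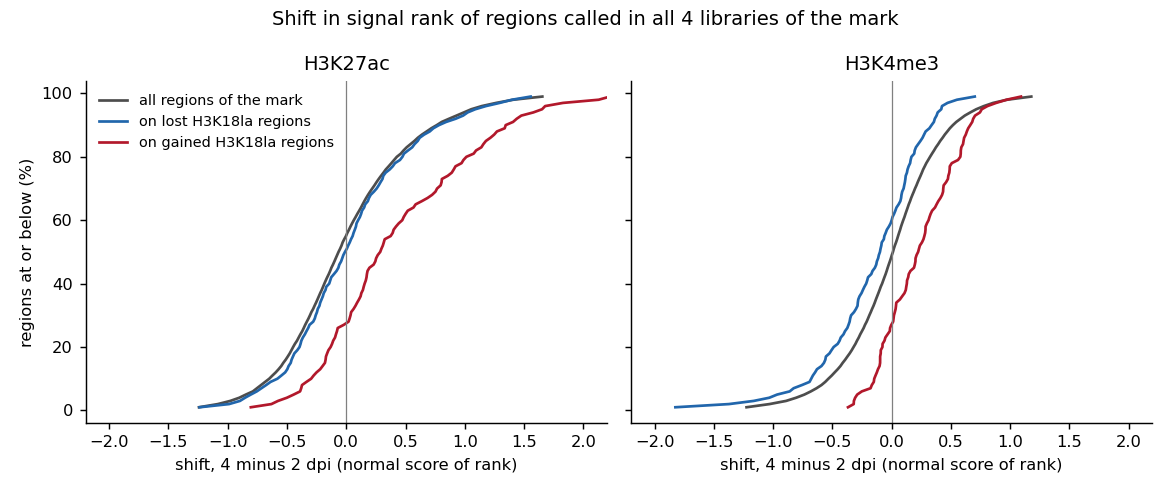
Cumulative percent of regions (y axis) at or below a shift in signal rank between 2 and 4 dpi (x axis, normal score), for H3K27ac and H3K4me3 regions called in all 4 libraries of their mark. Regions on gained H3K18la regions (red) lie to the right of all regions of the mark (grey), with medians of 0.29 against -0.07 for H3K27ac and 0.22 against 0.01 for H3K4me3.

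The 4 H3K27ac regions that rose were all wide, and they are named here because so few passed, after their values were seen. Percentiles in this paragraph and in those on the strength of H3K4me3 below are among the tested regions of the mark. Elsewhere they are within a library's own list. The H3K27ac region with the lowest adjusted p spanned 23.5 kb, 118486845 to 118510333 on chromosome 9. It went from percentiles 71.2 and 63.3 at 2 dpi to 95.9 and 97.1 at 4 dpi (shift 1.37, SE 0.21, limma adjusted p = 0.0289). Inside it a gained region at 118494365 to 118495985 had no H3K27ac peak of its own at 2 dpi. A 38.3 kb region at 122854903 to 122893226 on chromosome 8 went from 92.1 and 80.1 to 98.8 and 98.5 (shift 1.08, SE 0.18, adjusted p = 0.0381) and held 3 gained regions, between 122881213 and 122888029, each without an overlapping H3K27ac peak at 2 dpi. The others lay at 10912130 to 10929826 on chromosome 4, with a shift of 1.14, and at 40228808 to 40241897 on chromosome 9, with a shift of 0.83. In each of the 4, both 4 dpi libraries stood above both 2 dpi libraries, and the 6 gained regions inside them lacked H3K4me3 in all 4 libraries of that mark.

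H3K4me3 rose in strength at 25 of the 106 tested places on gained regions, and most of the others did not pass in either direction. Of 13298 H3K4me3 regions called in all 4 libraries 1035 rose (7.78%) and 1073 fell (8.07%). Among the 106 the 25 that rose made up 23.6%, 1 fell, and 77 (72.6%) had a shift above 0. The median shift was 0.22, against 0.01 over all H3K4me3 regions, and -0.10 on lost H3K18la regions, of which 16 of 336 rose and 58 fell. On regions with 1 H3K18la list at 2 dpi it was 0.08, with 86 of 713 that rose (12.1%) and 30 that fell. Leaving out 1 library of the mark moved the count, and the median shift on gained regions was then 0.18 to 0.25. Over all H3K4me3 regions it was then -0.00084 to 0.013. By maximum signal 3 passed, with a median shift of 0.22.

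The test takes only H3K4me3 regions called at both times, so its rises were at places that already had the mark. The 25 H3K4me3 regions that rose overlapped 25 gained regions, of which 23 had H3K4me3 and 18 had H3K27ac in both 2 dpi libraries. Such H3K27ac was as common without regard to a rise: it was found at 77 of the 100 gained regions with H3K4me3 in both 2 dpi libraries. Chromosome 11 held 7 of the 25, and 35 of all 457 gained regions. Its share of the tested H3K4me3 regions was not computed. H3K27ac showed no common direction at the 25: of the 23 with a tested H3K27ac region 11 had a shift above 0 and 12 below, and none passed the test. The lowest adjusted p was that of 19426922 to 19434846 on chromosome 7, which went from percentiles 59.4 and 64.2 at 2 dpi to 89.7 and 86.9 at 4 dpi (shift 0.89, SE 0.12, limma adjusted p = 0.0012). There H3K27ac had a shift of 1.08. At 73065820 to 73069711 on chromosome 11 H3K4me3 went from 77.7 and 69.8 to 91.0 and 92.7 (shift 0.76, SE 0.12, adjusted p = 0.0024), where H3K27ac had a shift of -0.38.

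The largest H3K4me3 shift among these was at 118243195 to 118247633 on chromosome 11, from percentiles 9.66 and 3.68 to 64.1 and 37.7 (shift 1.57, SE 0.28, adjusted p = 0.00433). It overlapped a gained region at 118244223 to 118245754 that had H3K27ac in neither 2 dpi and both 4 dpi libraries, so that at this place both marks and H3K18la were higher or first called at 4 dpi. The other 7 of the 10 lowest adjusted p had shifts between 0.49 and 0.82, and lay on chromosomes 7, 11, 12 and 19. The single region that fell, at 152667526 to 152673983 on chromosome 2, was at percentiles 97.4 and 97.4 at 2 dpi and 95.3 and 94.9 at 4 dpi (shift -0.28, SE 0.09, adjusted p = 0.0469).

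Polycomb marking was scarce throughout. No H3K27me3 library had a peak at 426 of the gained regions (93.2%), against 92.1% of all H3K18la regions. The shares with a peak were 4.38% and 3.28% at 2 dpi and 4.16% and 6.13% at 4 dpi, with overlapping libraries (exact permutation p = 0.667). The mean rose by 1.31 points, against 1.79 points at the other H3K18la regions. In 13 regions all 4 libraries had the mark, and in 1 both 2 dpi libraries but neither 4 dpi library did. Of 7515 H3K27me3 regions called in all 4 libraries 67 rose (0.892%) and 4 fell (0.0532%) by limma. None of the 18 that overlapped a gained region passed. Of the 18, 7 (38.9%) had an unadjusted limma p under 0.05, against 15.3% of all H3K27me3 regions. The share was 33.3% on lost regions, 33.0% on regions with 1 H3K18la list at 2 dpi and 31.9% on regions in all 4 lists.

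The strongest gained regions mostly followed the pattern of the largest group at 4 dpi, H3K27ac without H3K4me3. The first, at 106158501 to 106160625 on chromosome 1, stood at H3K18la percentiles 76.7 and 80.7 at 4 dpi. No H3K27ac peak overlapped it in either 2 dpi library, and at 4 dpi its H3K27ac peaks stood at 81.4 and 49.5. It had no H3K4me3 or H3K27me3 peak in any library, and the nearest 2 dpi H3K18la peak was 59043 bp away. The second, at 19854586 to 19857641 on chromosome 4, was at 62.7 and 61.2 for H3K18la, with H3K27ac at 72.7 and 22.4 at 4 dpi only. A region of the same kind at 144511606 to 144513405 on chromosome 2 had H3K27ac at 43.4 and 21.3 at 4 dpi only.

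**Figure D5:**
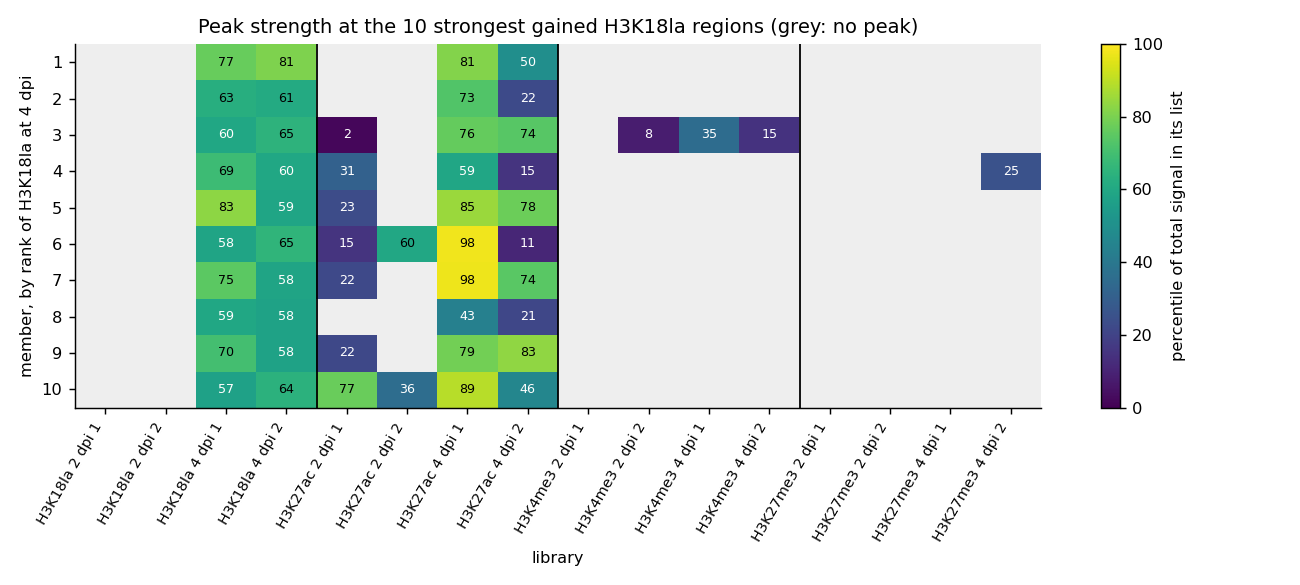
Percentile of total signal of the strongest overlapping peak (colour and number, grey for no peak) in each of the 16 libraries (columns) at the 10 gained regions with the highest H3K18la at 4 dpi (rows, by rank). All 10 have H3K27ac in both 4 dpi libraries, 2 have it in both 2 dpi libraries, 5 in 1 of these and 3 in neither, while H3K4me3 appears in 1 row and H3K27me3 in 1 row.

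Among these 10, a region at 33799677 to 33801905 on chromosome 6 lay farthest from older lactylation, 350726 bp from the nearest 2 dpi H3K18la peak. Its H3K18la stood at 83.0 and 58.8, and its H3K27ac went from 23.3 in 2 dpi replicate 1 and no peak in 2 dpi replicate 2 to 85.0 and 77.5. One at 132551835 to 132553720 on chromosome 2 went from 22.0 and no peak to 97.5 and 74.5, and one at 121160400 to 121162395 on chromosome 9 from 21.7 and no peak to 78.7 and 83.4. In these 3 both 4 dpi libraries stood above the single 2 dpi peak. That did not hold at 97765361 to 97767353 on chromosome 7, which had H3K27ac at 31.0 in 2 dpi replicate 1, then 59.3 and 15.0 at 4 dpi. H3K4me3 was called at 1 of the 10, at 85414551 to 85416744 on chromosome 11, at percentiles of 7.82 in 2 dpi replicate 2, 35.2 and 14.7 at 4 dpi, and nowhere in 2 dpi replicate 1. There H3K27ac was at 1.88 in 2 dpi replicate 1, then 76.2 and 74.2 at 4 dpi. The chromosome 7 region was the only one with H3K27me3, at percentile 25.3 in 4 dpi replicate 2.

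Regions acetylated beforehand differed among themselves in H3K4me3. The strongest of them, at 25246779 to 25248649 on chromosome 12, had H3K27ac at percentiles 15.0 and 60.02 at 2 dpi and 97.8 and 10.7 at 4 dpi, so the replicates of each time were far apart, and it had no H3K4me3. The next, at 134132694 to 134134862 on chromosome 6, had 77.2 and 35.6 followed by 89.1 and 45.8, also without H3K4me3. Next came a pair with H3K4me3. At 113318655 to 113320837 on chromosome 6 H3K27ac was at 88.2 and 80.9, then 91.7 and 83.2, and H3K4me3 at 72.3 and 75.2, then 80.1 and 81.4. At 17016497 to 17018979 on chromosome 16 H3K27ac was at 91.7 and 79.7, then 87.9 and 92.3, and H3K4me3 at 35.5 and 34.3, then 58.4 and 56.0. This place overlapped a H3K4me3 region that rose (limma adjusted p = 0.0392). Among the tested regions that H3K4me3 region stood at 21.7 and 21.4, then 42.4 and 45.2. The fifth, at 100326930 to 100328273 on chromosome 3, went from H3K27ac percentiles of 18.3 and 1.64 to 84.5 and 74.0, without H3K4me3.

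Gained regions without any H3K27ac peak were few and not strong. The strongest of the 28, at 92887325 to 92888403 on chromosome 16, stood at H3K18la percentiles 38.2 and 40.3 and had no peak of any other mark. One at 81115185 to 81116361 on chromosome 17, at 33.0 and 38.0, had H3K27me3 at 40.6 and 30.2 at 2 dpi and at 52.6 in 4 dpi replicate 2. The fourth, at 29884464 to 29885898 on chromosome 16, carried H3K4me3 and H3K27me3 together in all 4 libraries of each: H3K4me3 stood at 64.4 and 59.6, then 82.1 and 68.0, and H3K27me3 at 76.7 and 73.6, then 89.8 and 64.7. The remaining 2 of the 5 strongest, on chromosome 1 at 138216200 to 138217029 and 180026648 to 180027577, had no peak of the other marks.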

How the data were processed

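Per the labels, the submitters used Trim Galore 0.6.6 for trimming, Bowtie2 2.4.4 for alignment, SAMtools 1.13 for sorting, bedtools 2.30 for coverage and SEACR 1.3 for peaks of each library (stringent mode, threshold 0.01, no normalization). The deposited signal is the authors' sum and maximum of fragment coverage per peak, in whole numbers that are not comparable between libraries, so ranks within a list were used. Labels give GRCm39, while the study's methods name mm10 for the alignment. 255 peaks end beyond the GRCm38 ends of 5 chromosomes, so GRCm39 was taken.

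Members, lists and named regions were chosen with earlier results of these data known. A mark was present at 1 bp overlap. Shares were compared over libraries by a 2-sided exact permutation test. limma 3.58.1 (R 4.3.3; trend, robust, Benjamini-Hochberg over all regions of a mark) was run on normal scores of ranks after testing it on simulated data. Named regions are the 10 strongest members by the lower H3K18la percentile at 4 dpi, the 5 strongest in each of 3 H3K27ac classes, the 3 weakest, and the 10 lowest adjusted p. Alternatives were other overlaps, merges, thresholds, list lengths, left-out libraries and limma settings. Gene names, gene lists, cell type markers, motifs and sequences were planned but not run, because the annotation at hand is of GRCm38 and coordinates were not converted. For H3K27me3 at 4 dpi the file names number the replicates the other way round than the labels, which were followed. Intervals that need depth are not given. Same-numbered libraries came from different mice at the 2 times. Correlations of their deviations from the group means were 0.0862 for H3K27ac, -0.00265 for H3K4me3 and -0.052 for H3K27me3, so the numbers were not used as pairs.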

Additional observations from a re-analysis of the deposited data

How the results depend on the processing

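The rise of H3K27ac, H3K4me3 and H3K27me3 shares at gained regions kept its direction under all 13 alternatives run for each mark, and no p could fall below 0.33. The shares of the other H3K18la regions also rose, by 16.2, 1.76 and 1.79 points, the last above the 1.31 points of gained regions. Leaving out 1 library, of the mark or of H3K18la, gave 27.65 to 49.23 points for H3K27ac, 1.86 to 8.425 for H3K4me3 and 0.3282 to 2.298 for H3K27me3. The number of gained regions was 929 with H3K18la lists cut to equal length, beside 937 lost regions, and 586 to 2139 without 1 H3K18la library. The share acetylated in both 2 dpi libraries was 53.17% when either library sufficed and 27.34% to 48.58% without 1 library. Acetylation at 4 dpi only, whose alternatives were chosen after seeing the data, was 17.55% with lists of equal length and 14.31% to 41.79% without 1 library. It lay above the share of the other H3K18la regions under all of these.

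Counts of limma calls depended most on the setting. For H3K27ac, 4 calls at gained regions became 0 by maximum signal, where none passed over all regions either. They became 1 with the weakest 25% of peaks dropped (5 rose and 0 fell over all regions). On log2 of median-scaled signal there were 11 (64 rose and 4 fell). With regions called in at least 2 of 4 libraries there were 41 among 378 tested on gained regions (377 rose and 61 fell over all regions). That setting admits regions with peaks at 4 dpi only, counted as 0 at 2 dpi. Its rises are thus partly fixed by the filter, and no conclusion is drawn from them. Leaving out 1 library gave 3 to 27. With the replicate block, although the numbers do not pair the libraries, there were 36 calls at gained regions for H3K27ac, 28 for H3K4me3 and 2 for H3K27me3. Over all regions of the mark 447 rose and 134 fell for H3K27ac, 1202 and 1199 for H3K4me3, and 187 and 21 for H3K27me3. For H3K4me3, 26 calls became 3 by maximum signal, and 11 to 33 without 1 library. On log2 of median-scaled signal 938 H3K4me3 regions rose and 1882 fell over the whole table, and at gained regions 21 rose and 2 fell. For H3K27me3 the median shift on gained regions was 0.015 to 0.14 with 1 library left out, against -0.05 to -0.02 over all H3K27me3 regions. The cause of these changes was not tested. A peak that narrowly misses the caller's threshold in 1 library moves a region in or out of the gained set, and the depth behind each list is unknown.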

Other observations

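Lost regions, which give up the H3K18la call over the same days, had mean H3K27ac shares of 54.2% at 2 dpi and 65.8% at 4 dpi, with overlapping libraries. They lay closer together, with 9.51% within 10 kb of another lost region, against 2.41% of gained regions within 10 kb of another gained region. Lost regions were more numerous with the full lists used here, and their density was not corrected for.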
